A study of Mus musculus with 764 samples.

Results

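The T helper 1 (Th1) cytokine gene Ifng and 7 genes that act with it in the interleukin-12 and interleukin-18 axis were followed cell by cell in IL-10-producing CD4+ T cells. These 8 genes were Ifng, Tbx21, Eomes, Stat4, Il12rb1, Il12rb2, Il18r1 and Il18rap. They were chosen by name as a pathway out of the 23997 genes of the tables, and all 8 were found there. The cells came from spleen and from small intestine after treatment of the animals with anti-CD3, an antibody that triggers T cells through their receptor and causes a transient inflammation of the small intestine. Each was sorted as an IL-10+ CD4+ T cell from mice in which the Il10 gene drives the green reporter eGFP and whose Foxp3 gene drives a red one, and the study included Foxp3+ cells as a control. There was no untreated group, no label named an animal, and no label gave the sorting gate of a well.

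Every cell was sequenced alone with SMART-seq2, a full-length protocol without molecular identifiers, and the plate code and well of each cell gave 4 well sets. Of 190 small intestine cells, all on plate p2, 72.1% were kept. Of the spleen cells, 400 were kept (69.7%). They formed set A (plate p1, well columns 1 to 12), set B (plate p1, the other columns) and set C (plate p2), of which 69.3%, 76.3% and 63.5% of the sequenced cells were kept. Kept cells had 162801 to 622997 reads on genes, with a median of 324546 in the small intestine and 353700 in the spleen. Because each tissue counts as 1 sample, no difference between tissues has a replicate check, and the spread over the 3 spleen sets is the only yardstick given. Tissue and position on plate p2 cannot be told apart. A level is given as CPM, the reads of a gene with every cell brought to 1 common read total, and a cell is said to express a gene when it had at least 10 reads of it. Intervals in brackets are exact 95% binomial intervals of a share and cover counting error only.

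Interleukin-12 from antigen-presenting cells binds a receptor made of IL-12Rβ1 and IL-12Rβ2 and acts through the transcription factor STAT4. Interleukin-18 binds IL-18R1 together with IL-18RAP and signals through MyD88 and NF-κB. In Th1 cells both routes act with T-bet (Tbx21), and in some T cells with the related factor Eomes, to drive production of interferon-γ, the product of Ifng. Interferon-γ activates macrophages and other cells, and T cells that make it together with IL-10 are known from infections and from the gut.

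The cell sets differed in cell makeup in ways that touch these genes. Every kept cell expressed at least 1 of the CD4+ T cell genes Cd3e, Cd3d and Cd4. Foxp3, the defining gene of regulatory T cells, was expressed by 54.1% of set A cells, by 13.1% and 4.1% of sets B and C and by 3.6% of small intestine cells. No label says whether set A holds the Foxp3+ control wells of the study, which bears on every set A value and on the spread over the 3 spleen sets. Cd8a, a gene of CD8+ T cells, was expressed by 19.7% of small intestine cells and by 1 spleen cell. Cd8b1, the other CD8 gene examined, did not follow it, with mean CPM of 38.4 there and 53.3, 16.6 and 24.3 in sets A, B and C. At least 1 of Cd8a and Cd8b1 was expressed by 21.9% of small intestine cells and by 14.3%, 10.3% and 9.84% of the spleen sets. At least 1 of 7 natural killer cell genes was expressed by 38.7% of small intestine cells against 9.77% to 10.3% of the spleen sets. That share was almost wholly Cd160, which 37.96% of small intestine cells expressed. Ncr1, Klra8 and Klra4 were at 0 there, and Klra8 and Klra4 also in every spleen set. Klre1, Klrb1c and Klrc2 had means of 4.90, 1.29 and 0.12 CPM in the small intestine, against at most 0.44, 6.39 and 0.44 in a spleen set. Over 14 genes of B, myeloid and epithelial cells the median share of expressing cells lay between 0.34% and 1.23% per set, a background for the shares that follow. The highest of these shares were 8.03% (Cd79b, small intestine) and 13.5% (Epcam, set A), the latter above the set A shares of Il18r1 and Il18rap given below. Without cells that had a Foxp3 read, the log2 ratios of the small intestine to the whole spleen were −0.62 for Tbx21, 0.99 for Stat4, 0.43 for Il12rb1 and 0.71 for Il12rb2, and those of Ifng and the IL-18 receptor genes stand with these genes. Without cells that had a Cd8a read, mean CPM in the small intestine and the whole spleen was 661.1 and 243.8 for Ifng and 95.06 and 203.96 for Tbx21. It was 319.4 and 50.9 for Il18r1, and 633.7 and 121.5 for Il18rap. The part of Cd160 in the ratios was not tested.

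The promoter sequences of the cytokine gene and of 1 receptor chain for each interleukin are shown because Il12rb2 and Il18rap were the ranked members whose pattern over cells was most like that of Ifng. They are the 250 bases before the RefSeq transcription start in build GRCm38.p6, written on the strand of the gene, with motif matches in capitals. The windows are chr10:118440796-118441045 on the plus strand for Ifng, chr6:67376189-67376438 on the minus strand for Il12rb2, and chr1:40515112-40515361 on the plus strand for Il18rap.
Ifng: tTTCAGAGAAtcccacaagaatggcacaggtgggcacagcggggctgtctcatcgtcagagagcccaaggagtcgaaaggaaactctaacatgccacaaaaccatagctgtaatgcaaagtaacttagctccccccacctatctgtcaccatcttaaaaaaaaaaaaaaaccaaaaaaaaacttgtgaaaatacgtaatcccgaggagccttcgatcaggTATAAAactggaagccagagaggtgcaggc
Il12rb2: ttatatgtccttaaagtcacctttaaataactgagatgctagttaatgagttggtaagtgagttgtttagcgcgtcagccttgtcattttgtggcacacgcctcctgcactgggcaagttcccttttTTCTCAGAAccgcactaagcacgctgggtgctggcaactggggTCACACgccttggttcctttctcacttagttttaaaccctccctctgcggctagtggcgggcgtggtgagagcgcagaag
Il18rap: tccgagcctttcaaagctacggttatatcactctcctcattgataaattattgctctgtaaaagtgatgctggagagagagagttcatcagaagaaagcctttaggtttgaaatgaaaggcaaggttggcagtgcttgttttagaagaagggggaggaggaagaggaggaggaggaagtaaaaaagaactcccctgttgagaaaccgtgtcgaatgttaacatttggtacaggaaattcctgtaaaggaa
3 short motifs were searched on both strands. The TATA box TATAAA stood 30 bases before the start in Ifng and in no other member window. The T-box core TCACAC, the letters that T-bet and Eomes can bind, stood 80 bases before the start in Il12rb2 alone. The STAT site TTCNNNGAA, which reads the same on both strands, stood once each in Ifng, at the far end of the window, and in Il12rb2, and 1 of the 3 Il18r1 windows held it at 2 places. None of the 3 motifs stood in the Il18rap window. The TATA box was present in 12.4%, the T-box core in 12.3% and the STAT site in 7.02% of all 32851 promoter windows of this length. Of the 10 windows available for 7 members, 1, 1 and 3 held them. A match describes letters and is not a binding site.

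Ifng, at chr10:118441046-118445892 on the plus strand (GRCm38, as are the gene positions that follow), was expressed by most small intestine cells and by a minority of spleen cells. It was expressed by 84 small intestine cells (61.3% [52.6 to 69.5]). In the spleen, 28 cells of set A (21.1% [14.5 to 28.97]), 48 of set B (33.1% [25.5 to 41.4]) and 27 of set C (22.1% [15.1 to 30.5]) expressed it. The small intestine interval lay above those of all 3 spleen sets. After every cell was thinned to 200000 reads the shares were 60.6% against 21.9%, 31.4% and 23.2%. Mean Ifng CPM was 557.6 against 252.02, 281.5 and 180.2 in sets A, B and C, an order kept for every triple of spleen values that follows. The log2 ratio of the small intestine mean to the spleen mean was 1.21, and 1.14, 0.98 and 1.62 to each set in turn.

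Single cells ranged widely in both tissues. In the small intestine the lowest, median and highest Ifng levels were 0, 223.8 and 5597 CPM. In the spleen sets lowest and median were 0, and the highest were 5966, 3624 and 4692, so the 2 tissues overlapped over their whole range. Among expressing cells alone the median CPM was 538.2 against 534.5, 508.1 and 311.4. Against sets A and B, the small intestine thus differed in how many cells expressed the gene, and hardly in the level of an expressing cell, which was lower in set C. The top 10% of spleen cells by Ifng held 81.9% of its reads, against 48.5% in the small intestine.

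Foxp3 went with low Ifng. Of the 96 spleen cells that expressed Foxp3, 8.3% expressed Ifng, against 31.2% of the others. In set A these shares were 8.3% and 36.1%. Without any cell that had a Foxp3 read, Ifng was expressed by 63.3% [54.3 to 71.6] of the remaining small intestine cells and 32.4% of those of the spleen, and the log2 ratio was 0.80. By set, the spleen shares were 41.7% [27.6 to 56.8] of 48 cells, 36.97% and 23.7%. The set A interval thus overlapped that of the small intestine. Mean Ifng CPM was then 577.4 in the small intestine against 655.6, 331.4 and 192.8, so set A stood above the small intestine. In the small intestine, Ifng was expressed by 59.3% of cells that expressed Cd8a and by 63.3% of cells without a Cd8a read.

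**Figure D1:**
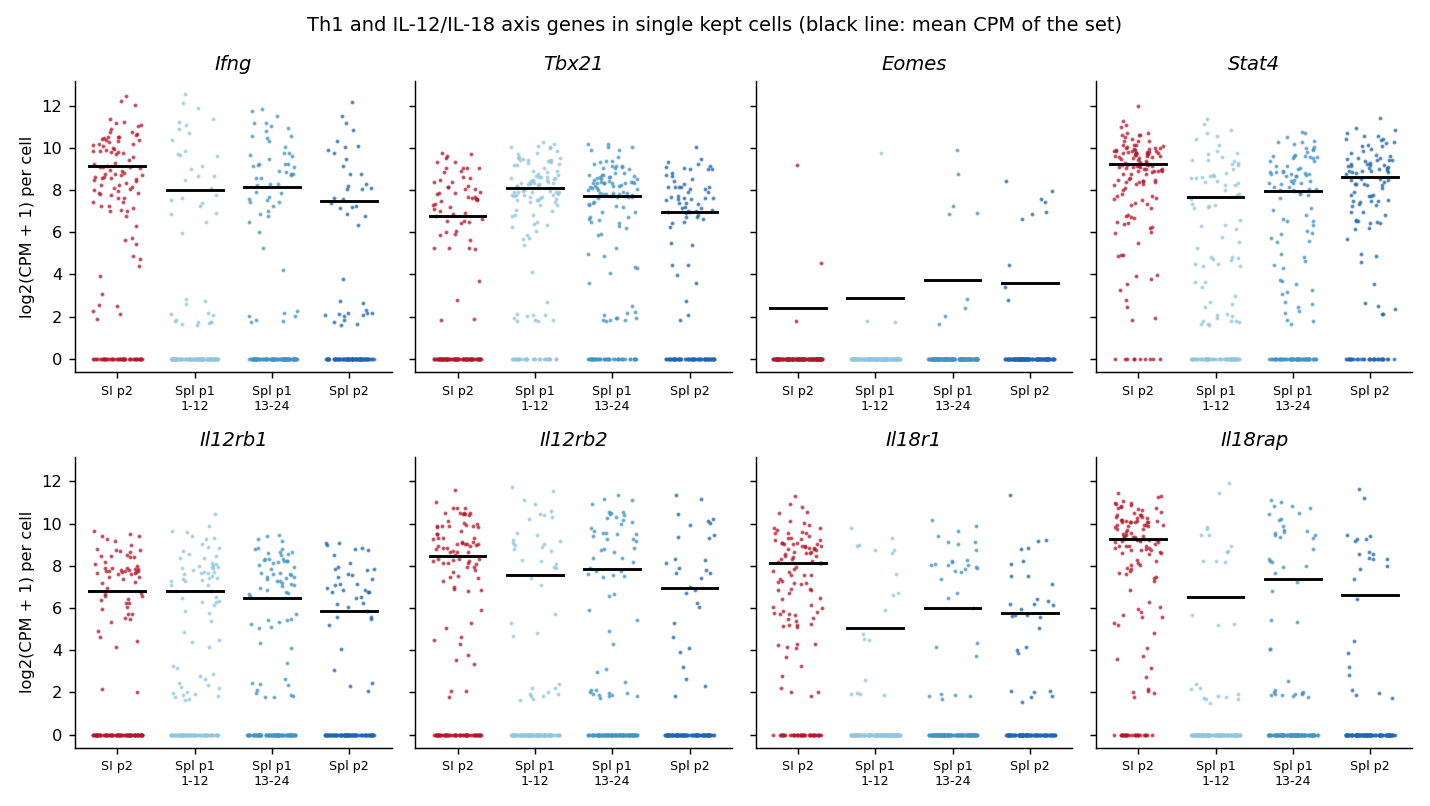
Each point is 1 kept cell of the small intestine or of spleen set A (p1 columns 1 to 12), B (p1 columns 13 to 24) or C (p2) and gives the log2(CPM + 1) of 1 of the 8 genes on the vertical axis, with a black line at the log2 of the mean CPM of the set plus 1. Cells of every set reach 0 for each gene. Ifng, Il12rb2, Il18r1 and Il18rap have a median of 0 CPM in every spleen set and a median above 0 in the small intestine.

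The transcription factor genes did not share a direction. Tbx21 (chr11:97098071-97115331, minus strand), which encodes T-bet, was expressed by fewer small intestine cells than spleen cells of plate p1, at 40.1% [31.9 to 48.9] against 69.2% [60.6 to 76.9] and 60.7% [52.2 to 68.7]. In set C the share was 44.3% [35.3 to 53.5], with an interval that overlapped that of the small intestine. Mean Tbx21 CPM was 109.6 against 270.995, 211.8 and 122.9. The log2 ratios to the 3 sets were −1.30, −0.94 and −0.16, and the last changed sign to 0.08 with TMM scaling factors. The median cell had 0 CPM in the small intestine, 210.7 and 149.7 in sets A and B and 1.3 in set C, and the highest cells lay between 852 and 1236 CPM. Tbx21 was thus lower than in sets A and B on every measure and close to its level in set C. Among spleen cells it was expressed by 72.9% of those that expressed Foxp3 and by 53.9% of the others.

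Eomes (chr9:118478212-118486132, plus strand), the second T-box factor, was expressed by few cells. It was expressed by 1, 1, 5 and 7 cells of the small intestine and the spleen sets, or 0.7%, 0.8%, 3.4% and 5.7%. Eomes was near the background medians of 0.36% and 0.75% in the small intestine and set A. It was above those of 0.34% and 1.23% in sets B and C. Its mean of 4.4 CPM in the small intestine and 6.4, 12.2 and 10.9 in the spleen sets rested on these few cells, the highest of which had 944 CPM. It was the 1 member whose mean stayed under 10 CPM in both tissues, so it was left out of counts over members. Both T-box genes were expressed together by 5 spleen cells and by no small intestine cell.

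Stat4 (chr1:51987148-52107189, plus strand), the signal transducer of the interleukin-12 receptor, had the widest expression of the 8 in the small intestine. It was expressed by 85.4% [78.4 to 90.8] of cells there and by 37.6% [29.3 to 46.4], 48.97% [40.6 to 57.4] and 67.2% [58.1 to 75.4] of the spleen sets. Mean CPM was 593.1 against 203.4, 248.015 and 388.9, with log2 ratios of 1.54, 1.25 and 0.61. The median cell had 510.7 CPM in the small intestine against 2.5, 20.8 and 194.1, and the highest cell 4054 against 2673, 1740 and 2690. Unlike Ifng, Stat4 was highest among the spleen sets in set C. Its exons share 26.7% of their bases with Gm28177 on the same strand, so reads there could belong to either gene.

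The receptor chains of interleukin-12 differed from each other. Il12rb1 (chr8:70808449-70821424, plus strand), the chain that also serves the interleukin-23 receptor, was expressed by 42.3% [33.9 to 51.1] of small intestine cells and by 36.8% [28.6 to 45.6], 35.2% [27.4 to 43.5] and 27.9% [20.1 to 36.7] of the spleen sets. The intervals of all 4 sets overlapped. Mean CPM was 109.8 against 111.4, 88.8 and 57.03, and the log2 ratios were −0.02, 0.30 and 0.93. The median cell had no read in the small intestine or in sets B and C and 2.6 CPM in set A, with highest cells of 806 against 1388, 705.9 and 548.9. With TMM factors the ratio to set A was 0.16, so the place of the small intestine at the top of the 4 sets depended on the scaling.

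Il12rb2 (chr6:67291318-67376188, minus strand), the chain that makes the receptor specific for interleukin-12 and recruits STAT4, followed the pattern of Ifng. It was expressed by 51.8% [43.1 to 60.4] of small intestine cells and by 21.1% [14.5 to 28.97], 29.7% [22.4 to 37.8] and 19.7% [13.03 to 27.8] of the spleen sets. Mean CPM was 355.8 against 185.6, 231.9 and 123.8, with log2 ratios of 0.93, 0.62 and 1.52. Without cells that had a Foxp3 read, mean CPM was 363.96 against 452.5, 217.2 and 130.7, so set A stood above the small intestine. The median was 109.8 CPM in the small intestine and 0 in each spleen set, and the highest cells had 3138 CPM against 3431, 2635 and 2611. Expressing cells had a median of 519.8 CPM in the small intestine against 535.015, 620.3 and 292.6, so the level of an expressing cell was no higher there than in sets A and B. Of the Il12rb2 exon bases, 40.04% overlap those of Serbp1 on the opposite strand, and this protocol does not keep strand. Serbp1 itself had a lower mean CPM in the small intestine (334.7) than in the spleen sets (650.2, 607.3 and 575.5), and within the sets the Spearman correlation of the overlapping genes ran from −0.12 to 0.07. Il12rb2 was expressed by 22.2%, 30.9% and 21.4% of spleen cells that expressed Serbp1, and by 0 of 7, 11.1% of 9 and 0 of 10 cells that did not, whereas in the small intestine the shares were 52.1% and 50%. Reads of the overlap cannot be told apart.

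The interleukin-18 receptor genes lie next to each other on chromosome 1 and had the largest ratios of the 8. Il18r1 (chr1:40465552-40500854, plus strand), the ligand-binding chain, was expressed by 62.8% [54.1 to 70.9] of small intestine cells and by 9.0% [4.7 to 15.2], 16.6% [10.9 to 23.6] and 15.6% [9.6 to 23.2] of the spleen sets. Mean CPM was 276.6 against 32.4, 63.6 and 53.8, with log2 ratios of 3.05, 2.10 and 2.34. The median was 87.7 CPM in the small intestine and 0 in each spleen set. The highest cells had 2519 CPM in the small intestine and 884, 1159 and 2660 in the spleen sets.

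Il18rap (chr1:40515362-40551705, plus strand), the accessory chain needed for signalling, was expressed by 72.99% [64.7 to 80.2] of small intestine cells and by 10.5% [5.9 to 17.03], 20% [13.8 to 27.4] and 13.9% [8.3 to 21.4] of the spleen sets. Mean CPM was 608.6 against 91.4, 165.9 and 95.6, and the log2 ratios were 2.72, 1.87 and 2.66. The median cell had 453.4 CPM there and none in each spleen set, and the highest 2815 against 3861, 2205 and 3236. For both chains the small intestine interval lay far above every spleen interval. Thinning to 200000 reads left the Il18rap shares at 69.7% against 10.2%, 18.98% and 15.2%, and the Il18r1 shares at 56.8% against 7.03%, 16.8% and 13.4%. Without cells that had a Foxp3 read, the log2 ratios to the whole spleen were 2.02 for Il18r1 and 1.93 for Il18rap, against 2.44 and 2.34 with all cells.

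**Figure D2:**
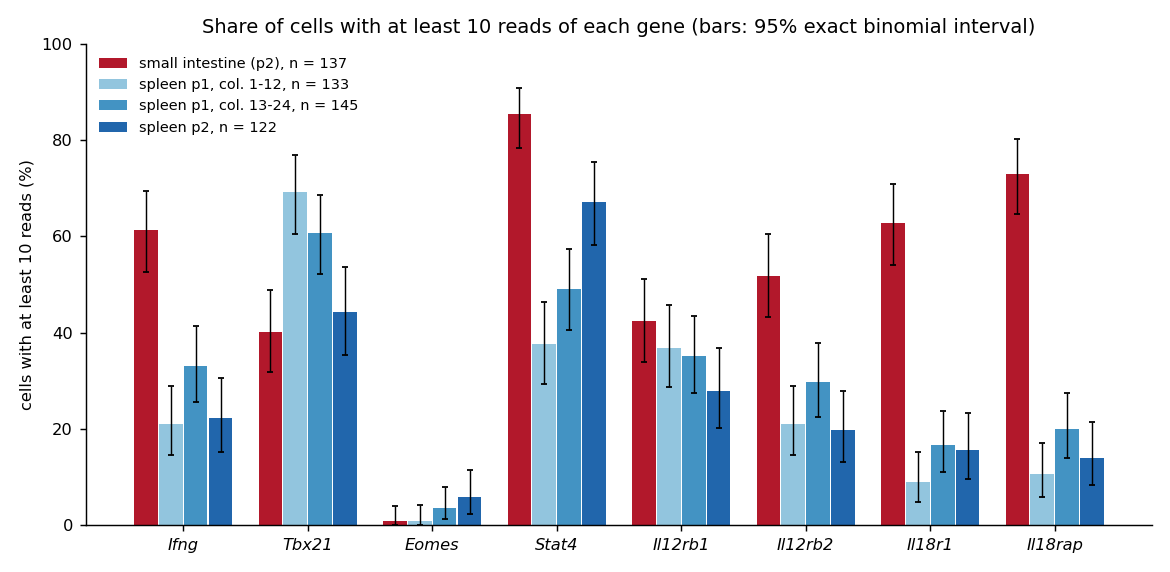
Bars give the percentage of kept cells with at least 10 reads of each of the 8 genes in the small intestine and the 3 spleen well sets, with exact 95% binomial intervals as error bars. Il18rap is at 72.99% in the small intestine and at most 20% in a spleen set, while Tbx21 is higher in both sets of plate p1 than in the small intestine.

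Seen across the 7 members that reached a mean of 10 CPM in a tissue, 5 had a higher mean in the small intestine than in each of the 3 spleen sets, Tbx21 had a lower one, and Il12rb1 lay among the spleen sets. Il18r1 and Il18rap were at least 2-fold above all 3 sets and none was 2-fold below. Among all 8824 genes with such a mean, 25.3% lay above and 44.7% below all 3 sets, 5.46% were at least 2-fold above and 10.8% at least 2-fold below the 3 sets. The median log2 ratio to the whole spleen was 1.10 for the 7 members and −0.22 for all these genes. With TMM factors, which brought the median of all genes to −0.01, 6.95% were at least 2-fold above and 7.97% at least 2-fold below, 35.01% lay above and 34.98% below all 3 sets, and Ifng joined the members at least 2-fold above all sets. Since the members were chosen as a pathway, these counts describe them and were not tested. They are counts over all kept cells. Without cells that had a Foxp3 read, set A had a higher mean CPM than the small intestine for Ifng (655.6 against 577.4) and Il12rb2 (452.5 against 363.96). Stat4, Il18r1 and Il18rap stayed above all 3 sets.

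**Figure D3:**
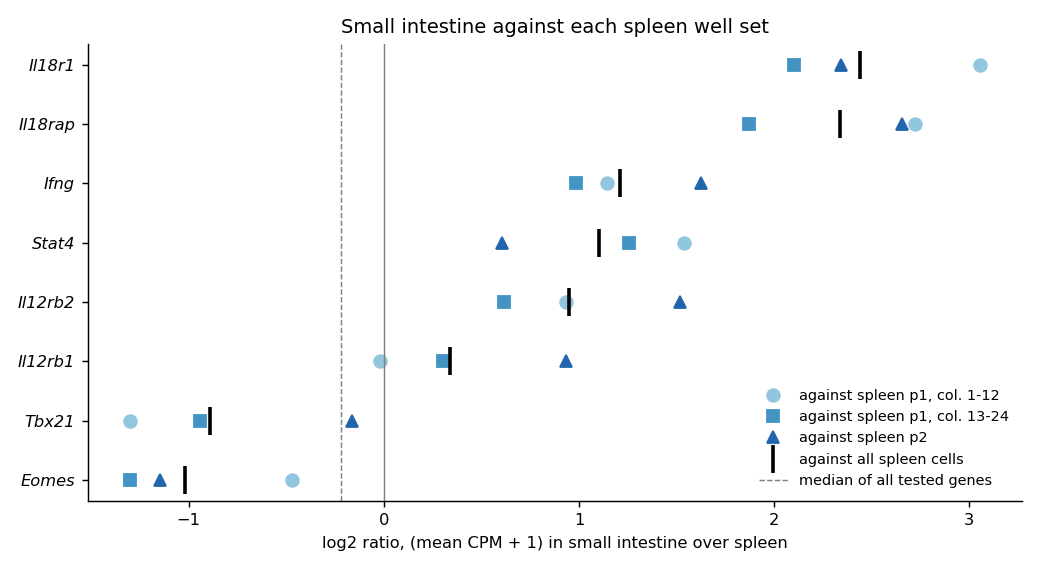
Points give the log2 ratio of mean CPM (with 1 CPM added to each) of the small intestine over each of the 3 spleen well sets for the 8 genes, with upright bars for the ratio to all spleen cells, a solid line at 0 and a dashed line at the median of all genes. Il18r1 and Il18rap lie between 1.87 and 3.05, Tbx21 lies below 0 in all 3, and Il12rb1 lies on both sides.

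Levels of different genes were set side by side only per kilobase of exon. On that scale Ifng was the highest of the 8 in the small intestine, with a mean of 430.6 CPM per kilobase, followed by Stat4 (153.2), Il12rb2 (93.8), Il18rap (90.1), Il18r1 (57.4), Tbx21 (44.1), Il12rb1 (26.7) and Eomes (1.05). In the spleen sets Ifng also led, with 194.6, 217.4 and 139.1 CPM per kilobase. The member below it was Tbx21 in sets A and B (108.9 and 85.1) and Stat4 in set C (100.4). The IL-18 receptor genes, in the middle of the order in the small intestine, stood below Il12rb1 in set A, where Il18rap had 13.5 and Il18r1 6.73 CPM per kilobase against 27.1. In sets B and C Il18rap (24.6 and 14.2) was above Il12rb1 (21.6 and 13.9) and Il18r1 (13.2 and 11.2) below it. Of the Ifng exon bases, 25.9% are shared with Gm49751 on the same strand.

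Ifng was found in cells that also expressed Il10, the cytokine gene behind the reporter used for sorting. Il10 was expressed by 95.6% of small intestine cells and by 87.2%, 82.1% and 59.8% of the spleen sets. Both cytokine genes were expressed by 58.4% [49.7 to 66.8] of small intestine cells, where the product of the single shares was 58.6%. In the spleen sets both were expressed by 19.5% [13.2 to 27.3], 31.03% [23.6 to 39.2] and 18.03% [11.7 to 25.99] of cells, against products of 18.4%, 27.2% and 13.2%. The joint share thus matched the product in the small intestine and lay above it, within the interval, in each spleen set.

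In the spleen, cells without Il10 seldom expressed Ifng. Ifng was expressed by 22.4% of Il10-expressing and 11.8% of other cells in set A, by 37.8% and 11.5% in set B, and by 30.1% and 10.2% in set C. Without cells that had a Foxp3 read these shares were 52.8% and 8.33%, 43.2% and 12.5%, and 32.4% and 10.9%. In the small intestine only 6 cells lacked Il10 expression, and 4 of them expressed Ifng, against 61.1% of the rest. Within Il10-expressing cells, those above and below the median of Il10 expressed Ifng at 66.2% and 56.1% in the small intestine, 24.1% and 20.7% in set A, 35.6% and 40% in set B, and 36.1% and 24.3% in set C. There was no common order by Il10 level across the 4 sets. The Spearman correlation of the 2 genes over cells was 0.15 over the small intestine cells and 0.16, 0.17 and 0.26 over those of the spleen sets, given as a description of sparse counts.

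The reporter transcript itself gave a mixed picture. eGFP was expressed by 69.05% of Ifng-expressing and 62.3% of other small intestine cells. In the spleen the same shares were 50% and 52.4% in set A, 60.4% and 49.5% in set B, and 48.1% and 28.4% in set C. Ifng-expressing cells had slightly more reads than the others in every set, with medians of 326881 against 319847 in the small intestine and 349064 against 312812 in set C.

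Ifng was found more often with Il12rb2 than without it in all 4 sets. Ifng was expressed by 73.2% [61.4 to 83.1] of small intestine cells with Il12rb2 and by 48.5% [35.99 to 61.1] of those without it. In the spleen sets the shares were 57.1% [37.2 to 75.5] against 11.4% [6.05 to 19.1], 65.1% [49.1 to 78.99] against 19.6% [12.4 to 28.6], and 45.8% [25.6 to 67.2] against 16.3% [9.63 to 25.2]. The intervals of cells with and without Il12rb2 did not overlap in any set. After thinning they were 73.9% against 46.03% in the small intestine and 58.1% against 16.2% in the spleen. Mean Il12rb2 CPM was 448.6 in Ifng-expressing and 208.6 in other small intestine cells, and 668.9 against 56.8, 557.1 against 70.99 and 311.2 against 70.6 in the spleen sets. The 2 genes were thus found together in both tissues, and the gap was wider in each spleen set than in the small intestine. Over cells, the Spearman correlation was 0.26 in the small intestine and 0.36, 0.43 and 0.31 in the spleen sets.

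Ifng was also found more often with either interleukin-18 receptor gene when all cells were taken. Ifng was expressed by 72.1% of small intestine cells with Il18r1 and 43.1% without, and by 41.7% against 19.01%, 58.3% against 28.1% and 47.4% against 17.5% in the spleen sets. For Il18rap the shares were 64% against 54.1% in the small intestine, and 50% against 17.6%, 62.1% against 25.9% and 64.7% against 15.2% in the spleen sets. The spleen shares rest on few cells. The spleen sets had 12, 24 and 19 cells with Il18r1 and 14, 29 and 17 with Il18rap, fewer than the 28, 43 and 24 with Il12rb2. In the small intestine the Il18rap gap was lost without cells that had a Foxp3 read, and likewise without those that had a Cd8a read, at 63.5% against 62.5% in both cases. The Il18r1 gap there was 74.1% against 44.7% and 76.9% against 36.4% under the same choices, both made after seeing the data. In the spleen without cells that had a Foxp3 read, the Il18rap shares were 63.6% and 24.8%.

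For Tbx21, Stat4 and Il12rb1 the gaps in the Ifng share over all cells were narrower than for Il12rb2 in each set. Shares of Ifng in cells with and without Tbx21 were 69.1% and 56.1% in the small intestine, and 21.7% and 19.5% in set A, 37.5% and 26.3% in set B, and 29.6% and 16.2% in set C. Without cells that had a Foxp3 read the Tbx21 gap was wider in set A, at 50% against 27.8%, with 41.7% against 29.8% in set B, 33.3% against 16.7% in set C and 71.7% against 57.3% in the small intestine. For Stat4 the shares over all cells were 61.5% and 60% in the small intestine, 22% and 20.5% in set A, 39.4% and 27.03% in set B, and 20.7% and 25% in set C, where the order was turned. Only 20 small intestine cells did not express Stat4. Mean Stat4 CPM was 502.04 in Ifng-expressing and 737.5 in other small intestine cells. In sets A, B and C it was 188.98 against 207.2, 270.8 against 236.7 and 304.1 against 413.02. For Il12rb1, which pairs with Il12rb2 in the receptor, the Ifng shares were 63.8% and 59.5%, then 20.4% and 21.4%, 35.3% and 31.9%, and 26.5% and 20.4% in sets A, B and C. Ifng was also expressed without either T-box gene in 45 small intestine cells (32.8%) and 29 spleen cells (7.25%). Conversely, Tbx21 was expressed without Ifng in 12.4% of cells of the small intestine and 41.2% of those of the spleen.

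**Figure D4:**
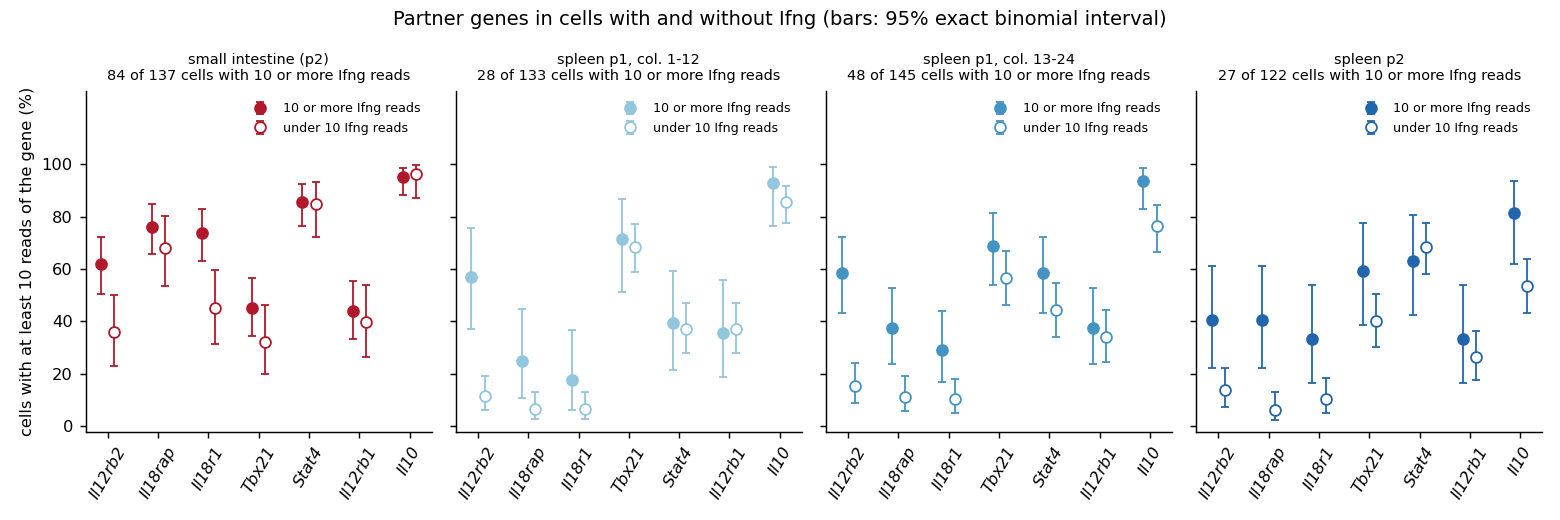
Points give the percentage of cells with at least 10 reads of each partner gene among cells with (filled) and without (open) at least 10 Ifng reads, in 1 panel each for the small intestine and the spleen sets of p1 columns 1 to 12 (A), p1 columns 13 to 24 (B) and p2 (C), with exact 95% binomial intervals. Il12rb2 was expressed by 61.9% of Ifng-expressing and 35.8% of other small intestine cells, and by 57.1% against 11.4%, 58.3% against 15.5% and 40.7% against 13.7% in the spleen panels.

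Joint expression of receptors for both interleukins went with high Ifng shares in each tissue, though not with the highest in set C. Il12rb2 together with Il18r1 or Il18rap was expressed by 61 small intestine cells (44.5%) and by 12, 20 and 7 cells of the spleen sets (9.75% of the spleen). Of these, 78.7% [66.3 to 88.1] expressed Ifng in the small intestine and 76.9% [60.7 to 88.9] in the spleen, with 75%, 85% and 57.1% in the 3 sets. Of cells with none of these 3 genes, 3 of 10 (30% [6.67 to 65.2]) expressed Ifng in the small intestine and 33 (12.8% [9.01 to 17.6]) in the spleen. Without cells that had a Foxp3 read, a choice made after seeing the data, the shares were 79.3% and 33.3% in the small intestine and 77.1% and 15.2% in the spleen. Without cells that had a Cd8a read, chosen likewise, they were 83% and 33.3%, and 76.9% and 12.7%. Over all cells of set C, Ifng was expressed by 64.7% of cells with Il18rap and by 75% of the 8 cells with both interleukin-18 receptor genes. In the small intestine it was expressed by 75.8% of cells with both interleukin-12 receptor genes and by 71.01% with both interleukin-18 receptor genes.

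Complete receptors were more common in the small intestine. Both chains of the interleukin-18 receptor were expressed by 50.4% of its cells and by 3.01%, 11.03% and 6.56% of the spleen sets, and both chains of the interleukin-12 receptor by 24.1% against 10.5%, 13.1% and 6.56%. All 4 receptor genes were expressed by 21 small intestine cells, of which 18 expressed Ifng, and by 10 spleen cells, all of which did. None of the 4 was expressed by 4 small intestine cells (2.92%) and by 44.8% of spleen cells. The single chains were also each expressed by a larger share of small intestine cells, and these joint shares were not set against their products. Within a set the interleukin-18 receptor chains went together, with a Spearman correlation of 0.37, 0.27, 0.43 and 0.29 in the small intestine and the spleen sets. Of the interleukin-12 chains, Il12rb1 was expressed without Il12rb2 by 18.2% of small intestine cells and by 26.3%, 22.1% and 21.3% of the spleen sets.

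Counted per cell, a mean of 4.18 of the 8 genes was expressed in the small intestine and of 2.06, 2.48 and 2.16 in the spleen sets. At least 5 were expressed by 43.8% of small intestine cells and by 6.02%, 9.66% and 5.74% of the spleen sets. At most 1 was expressed by 3.65% of small intestine cells and by 34.6%, 32.4% and 36.1%. No cell expressed all 8, and 38 spleen cells but no small intestine cell expressed none. After thinning the means were 4.01 in the small intestine and 2.18 in the whole spleen.

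**Figure D5:**
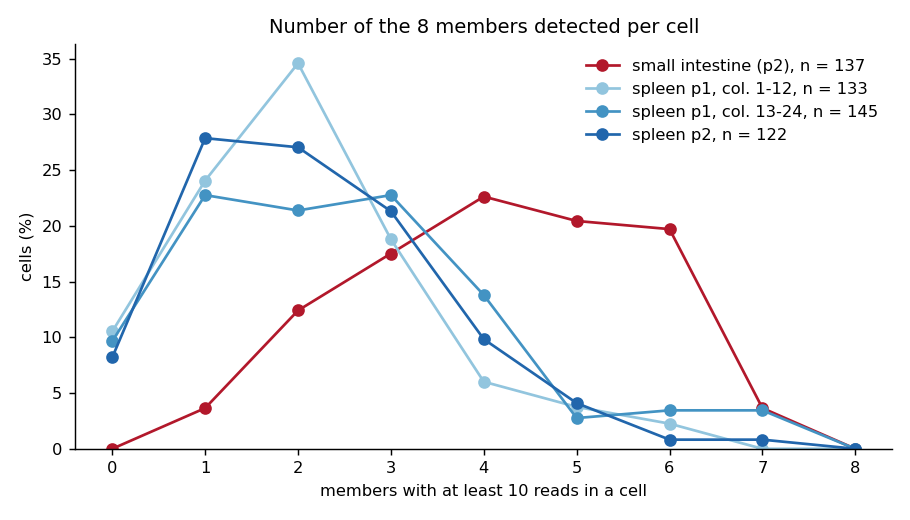
The horizontal axis gives how many of the 8 genes a cell expressed (at least 10 reads) and the vertical axis the percentage of kept cells, for the small intestine and the 3 spleen well sets. Small intestine cells centre on a mean of 4.18 genes, and the spleen sets on means of 2.06 to 2.48.

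Genes whose pattern over cells was most like that of Ifng were ranked by the mean over the 4 sets of the Spearman correlation, among 5705 genes expressed by at least 10% of the cells of each set. The first 8 were the chemokine gene Ccl3 (0.48), the granule gene Nkg7 (0.42), the chemokine gene Ccl4 (0.42), Slamf7 (0.36), Plek (0.35), the chemokine gene Ccl5 (0.34), Il12rb2 (0.34) and the transcription factor gene Runx2 (0.32). Il12rb2 was thus the closest ranked member, with Il18rap at rank 10, Il10 at rank 57, Tbx21, Il12rb1 and Stat4 further down, the latter genes at ranks 2412 and 4274. Il18r1 was not ranked, since 9.0% of set A cells expressed it, and its Spearman correlation with Ifng was 0.30 in the small intestine and 0.14, 0.26 and 0.19 in the spleen sets. In turn Ifng was the gene most like Il12rb2 and most like Il18rap, and Il18rap was most like Il18r1 (0.34). The genes closest to Tbx21 were Nkg7 (0.25), Irf8 (0.24) and Il10 (0.23). Stat4, with Slc25a17 (0.18) first, and Eomes, with Ctsw (0.16), had no close gene. Cells of a set share library preparation, and these values are descriptions.

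Genes of naive and central memory cells had the opposite pattern. Tcf7, a transcription factor gene of such cells, was expressed by 12.6% of Ifng-expressing and 48.5% of other spleen cells, with 25.9% and 78.9% in set C. Ccr7, a receptor for homing to lymph nodes, was expressed by 4.85% and 29.6%, with 11.1% and 63.2% in set C. Tcf7, Ccr7 and Lef1 of that list were each at least 2-fold below every spleen set in the small intestine. Their part in the tissue difference in Ifng was not tested.

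The wider pathway lists include the members, and their counts stand beside the 25.3% of all genes above and 44.7% below all 3 sets. Of 13 genes of IL-12, IL-27 and IL-23 signalling, 5 lay above and 2 below all 3 spleen sets in the small intestine. Stat3 (log2 ratio 0.87 to the spleen), which serves the related cytokines, was among the higher, while Il6st (−2.49), the shared chain of the IL-6 and IL-27 receptors, and the feedback inhibitor gene Socs1 (−0.77) were the lower. Of 16 genes of interleukin-18 and interleukin-1 signalling, 6 lay above and 6 below, and 5 were at least 2-fold above and 1 at least 2-fold below. Beside both receptor genes, the higher ones included Gadd45b (3.73) and Gadd45g (1.93), stress genes induced by interleukin-12 and interleukin-18 in Th1 cells, and the kinase gene Irak2 (1.39). Sigirr (−1.45), an inhibitor of the family, and Map3k4 (−1.09), the kinase that GADD45 proteins activate, were lower. With TMM factors the counts above and below were 7 and 2 for the first list and 6 and 4 for the second. Their median log2 ratios in CPM were 0.05 and −0.23, beside −0.22 for all genes tested.

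Of 10 Th1 transcription factor genes with enough reads, 8 lay above all spleen sets and Tbx21 below them, beside 25.3% and 44.7% of all genes. With TMM factors 9 lay above and none below, beside 35.01% and 34.98% of all genes. Bhlhe40, which promotes Ifng and restrains Il10 in Th1 cells, had a mean of 1132 CPM in the small intestine against 66.6, 151.2 and 131.7 (3.26). Runx3 (1.11) and Runx1 (1.14) were also higher. Of 10 Th1 effector genes, 8 lay above and 2 below in CPM, beside the same 25.3% and 44.7% of all genes. Ccl5 (3.04) and Fasl (2.30) were above, whereas Cxcr3 (−1.74), the chemokine receptor that T-bet induces, and Ccl3 (−0.78) were below, although Ccl3 was the gene most like Ifng within the sets. The median log2 ratio was 0.75 for both lists.

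Genes that respond to interferon-γ, listed together with its receptor genes, lay both above and below the spleen sets. Of 14 with enough reads, 5 lay above, Ifngr1 among them, and 7 below all spleen sets, with a median log2 ratio of −0.42. The count below is near the share of all genes. Ifngr1, the ligand-binding chain of the interferon-γ receptor, had a mean of 1966 CPM against 947, 581 and 592, at least 2-fold above all of them, and Gbp7 (0.72) was higher, while Irf8 (−2.53), Iigp1 (−1.40), Igtp (−1.0) and Psmb8 (−0.76) were lower. Ifngr2, the second receptor chain, had means of 0.1 CPM in the small intestine and 2.2, 2.1 and 4.8 in the spleen sets. The ligands of the axis were near 0 in these T cells. Il12b, Il27, Il15 and Il23a had no read in any kept cell, and Il18 had means of 0.09, 3.20, 5.44 and 9.41 CPM.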

How the data were processed

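Single-cell SMART-seq2 libraries of 764 cells were analysed, with 1 column per cell and none left unused. The authors aligned the reads with STAR (2-pass) and deposited raw read counts per gene. The submitters' processing notes name mm10 and the study's methods name Mm8. The counting tool is not given in the sources used here. The tables held 23997 gene rows besides eGFP, with 88 rows joining several names and 2 repeated names, none of them a member. No columns were identical.

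Cells more than 3 median absolute deviations below their tissue's median log reads or log genes were removed, as were those that cyclone (scran 1.30.0 in R 4.3.3) put in S or G2M. The filter of the study on the mitochondrial share was not applied. No doublet caller was run, since cells were sorted singly. From the deposited counts, CPM was computed over gene rows without eGFP. Ratios were log2((mean CPM + 1)/(mean CPM + 1)), which understates low genes. Shares used at least 10 reads, also after thinning to 200000 reads, which left out 5 small intestine and 23 spleen cells. PCR copies cannot be told from molecules here, since the protocol has no identifiers, so the Clopper-Pearson intervals cover counting error only. No test was run, as each tissue is 1 sample. Scaling alternatives were TMM (edgeR 4.0.16) and DESeq2 1.42.0 size factors over summed reads. Gene positions and overlaps are from GENCODE (GRCm38) and promoters from RefSeq. The named genes are the members, Il10, eGFP, up to 4 genes each way per pathway list, and the genes most like Ifng (8) or another member (up to 3). Overlapping neighbours, cell type markers, Ifngr2 and the ligands were named beside these. The values of some list genes are not reported here. Members and lists were chosen with earlier results of these data known. Statistics were computed with Python 3.11.15, pandas 2.3.3 and scipy 1.17.1, and the scripts were checked on simulated data.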

Additional observations from a re-analysis of the deposited data

Results flagged for a closer look

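The S and G2M cells left out of the comparisons also expressed Ifng, at shares above the limit of 3 cells of the total. Of 34 such small intestine cells, 67.6% [49.5 to 82.6] had at least 10 Ifng reads, where 3 cells are 8.82%. Of such spleen cells, 48 did (33.6% [25.9 to 41.9]), where 3 cells are 2.10%, with shares of 19.1%, 46.2% and 36.8% in sets A, B and C. Il18rap was expressed by 50% of the small intestine cells among them and by 19.1%, 35.9% and 33.3% of those of the spleen sets. For Il12rb2 the shares were 44.1% against 10.6%, 38.5% and 45.6%, with mean CPM of 160.1 against 32.4, 172.6 and 204.5. Il18r1 was expressed by 35.3% against 17.02%, 28.2% and 22.8%. In these cells the small intestine thus did not stand above every spleen set for Il12rb2.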

How the results depend on the processing

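No paired analysis was possible because replicate numbers only name cells and no test was run. Alternatives were other pseudocounts, read limits and filters, thinning, cycling cells kept, single spleen sets and other correlations. Cells with a Foxp3 read or with a Cd8a read were also left out in turn, and TMM and DESeq2 scaling was applied. Under that scaling, ratios to single sets and counts of genes above or below the spleen sets were added after seeing the data. The Ifng log2 ratio ranged from 0.80 (without cells with a Foxp3 read) to 1.62 (against set C alone) and kept its direction in all 12 alternatives. These did not pair the Foxp3 filter with single spleen sets. With both, mean Ifng CPM was 655.6 in set A against 577.4 in the small intestine. Against set A alone the Il12rb1 ratio turned to −0.020. With 1 read as the limit, Ifng and Il10 were found together in 68.6% of cells of the small intestine and 32.5% of those of the spleen, and Ifng in 35% of spleen cells. Without cells with a Foxp3 read, 32.4% of spleen cells expressed Ifng and 29.2% both genes. Single spleen sets gave Ifng shares of 21.1% (set A) and 33.1% (set B), and joint shares of 31.03% (set B) and 18.03% (set C). Pearson's correlation of Ifng and Il10 in the small intestine was 0.039. A pseudocount of 10 CPM put 3.55% of all genes at least 2-fold above and 5.49% below the spleen sets. Of 84 ratios of the other members under alternatives, 76 moved less than the spread between spleen sets, and 96 of their shares stayed within the interval while 23 did not. Single spleen sets give no value for small intestine shares. Read depth limits the genes with few expressing cells, Eomes above all.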
